A study of Mus musculus with 4 samples.

Results

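Opened coding-gene promoters are described here, the stretches of chromatin near the start of a protein-coding gene that carried an ATAC-seq peak on day 4 (d4) of mouse embryonic stem cell (mESC) differentiation and none on day 2 (d2). Merging every peak with any that it overlapped, by 1 bp or more and over the 4 libraries, gave 40910 union regions. Regions were selected on measured values, namely a call in each d4 library and none at d2, if they lay within 1000 bp of the transcript start of a protein-coding gene. This left 335 regions of 16595 near a coding start, or 2.02%, with 329 different genes nearest to them. The converse class, a peak in both d2 libraries and in neither d4 library, held 1518 regions (9.15%), and 9512 regions had a peak in every library (always-open promoters). Since presence of a peak defined the classes, these counts are a description with no test.

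The cells were ES-E14TG2a, a feeder-free mESC line grown in serum and LIF and then differentiated in serum-free medium as embryoid bodies toward cardiogenic mesoderm and endothelial cells (ECs). The d4 cells had been dissociated and reaggregated with human Activin A, BMP4 and VEGF, and the d2 cells were collected before that step. There were 2 libraries from d4 and 2 from d2, and the comparison asks where chromatin becomes accessible when the EC programme begins. The replicates of a time point came from separate differentiation experiments, and whether a d4 and a d2 library of the same number shared an experiment is not stated in the sources used here. The 1 cell line and the mixed cell population limit the model, and more cells of a type cannot be told apart from a wider opening in each cell.

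A promoter is the stretch around a transcription start where the transcription machinery assembles. Most promoters of widely expressed genes lie in CpG islands, which are rich in G and C and are accessible in nearly every cell type, whereas promoters of tissue-restricted genes are often poor in CpG. In early mesoderm, GATA factors bind the letters GATA within a few fixed flanking bases, ETS factors bind GGAA, and AP-1 dimers of FOS and JUN proteins bind a palindrome. GATA and ETS factors act together in the formation of blood and vessels. Many genes have several starts, and a start used in 1 tissue can lie far from the one used in most others.

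Sequences around the peak summits of strongly opened or listed promoters are shown because they carry the letters that set these regions apart from other promoters, as described further on. Each is 101 bases of mm10, centred on the summit and written 5′ to 3′ on the strand of the nearest gene, from the RefSeq copy of the assembly. In the first set, capitals mark AGATAAG or TGATAAG, the GATA letters, on either strand, and in Triml2 also the AP-1 letters TGANTCA. All but S100a10 carry the GATA letters on the strand shown.
Triml2, chr8:43179470-43179570, plus strand: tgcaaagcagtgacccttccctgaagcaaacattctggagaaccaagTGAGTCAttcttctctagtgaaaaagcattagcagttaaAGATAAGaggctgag
Tiprl, chr1:165217275-165217375, minus strand: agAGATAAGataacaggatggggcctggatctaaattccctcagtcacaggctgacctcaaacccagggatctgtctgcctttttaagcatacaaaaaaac
Mylk3, chr8:85380998-85381098, minus strand: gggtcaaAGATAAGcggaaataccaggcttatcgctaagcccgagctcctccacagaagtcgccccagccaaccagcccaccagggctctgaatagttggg
Lin28a, chr4:134011763-134011863, minus strand: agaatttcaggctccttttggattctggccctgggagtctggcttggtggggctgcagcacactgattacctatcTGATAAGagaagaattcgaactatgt
S100a10, chr3:93554569-93554669, plus strand: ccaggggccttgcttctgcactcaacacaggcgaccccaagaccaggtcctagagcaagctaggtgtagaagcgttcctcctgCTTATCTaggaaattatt
In the next set, capitals mark CAGGAAG, the ETS letters without CpG, here on the opposite strand in each.
Ipo11, chr13:106836367-106836467, minus strand: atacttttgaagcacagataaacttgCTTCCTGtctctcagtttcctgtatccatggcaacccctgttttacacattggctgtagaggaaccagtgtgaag
Nrip1, chr16:76323818-76323918, minus strand: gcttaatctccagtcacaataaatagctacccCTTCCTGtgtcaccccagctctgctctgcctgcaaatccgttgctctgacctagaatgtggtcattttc
Junb, chr8:84978772-84978872, minus strand: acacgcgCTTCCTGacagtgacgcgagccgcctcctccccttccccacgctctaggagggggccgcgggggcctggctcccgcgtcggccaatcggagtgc
In the last set, capitals mark the AP-1 palindrome.
Sh3glb1, chr3:144707524-144707624, minus strand: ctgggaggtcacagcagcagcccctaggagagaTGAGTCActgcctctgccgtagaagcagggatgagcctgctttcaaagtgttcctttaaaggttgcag
S100a10, chr3:93556022-93556122, plus strand: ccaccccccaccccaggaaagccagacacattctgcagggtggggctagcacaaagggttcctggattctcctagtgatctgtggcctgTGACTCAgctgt

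Support for the single regions was modest. The fold enrichment, which the authors' caller gives as summit pileup over local background, had medians of 6.84 (d4 replicate 1) and 6.89 (d4 replicate 2) over the 335 regions. The lower of both values lay between 3.69 and 12.6 with a median of 6.17. The folds differed by at most 1.5 times between the d4 libraries in 310 of the 335 regions. Across the 335 regions the log2 folds of both libraries had a Pearson r of 0.62, given as a description since the regions share their libraries. For comparison, always-open promoters had median folds of 10.0 and 9.87 in the d4 libraries, and of 9.99 and 11.6 in the d2 pair.

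The pileup behind a summit, solved from the fold and its p-value, had medians of 16 (d4 replicate 1) and 15 (d4 replicate 2), and the lower of both ranged over 7 to 34. It was at most 10 in 55 regions and over 20 in 38. Depth moved with the contrast, since the genome-wide background coverage was 0.755 and 0.744 at d4, against 0.568 and 0.483 at d2. Scaled to the coverage of d2 replicate 2, the shallowest library, the lower pileup would have a median of 8.96 and would fall under 6, the smallest pileup called at d2, in 30 of the 335 regions. Scaled to d2 replicate 1 it would do so in 1 region. The pileup needed for a call rises with the local background, so these counts can understate the regions that would miss a call. At Reep3, for example, a pileup of 11 in d4 replicate 2 gave a −log10 q of only 3.14. The part of depth in the d2 calls was otherwise not tested.

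**Figure D1:**
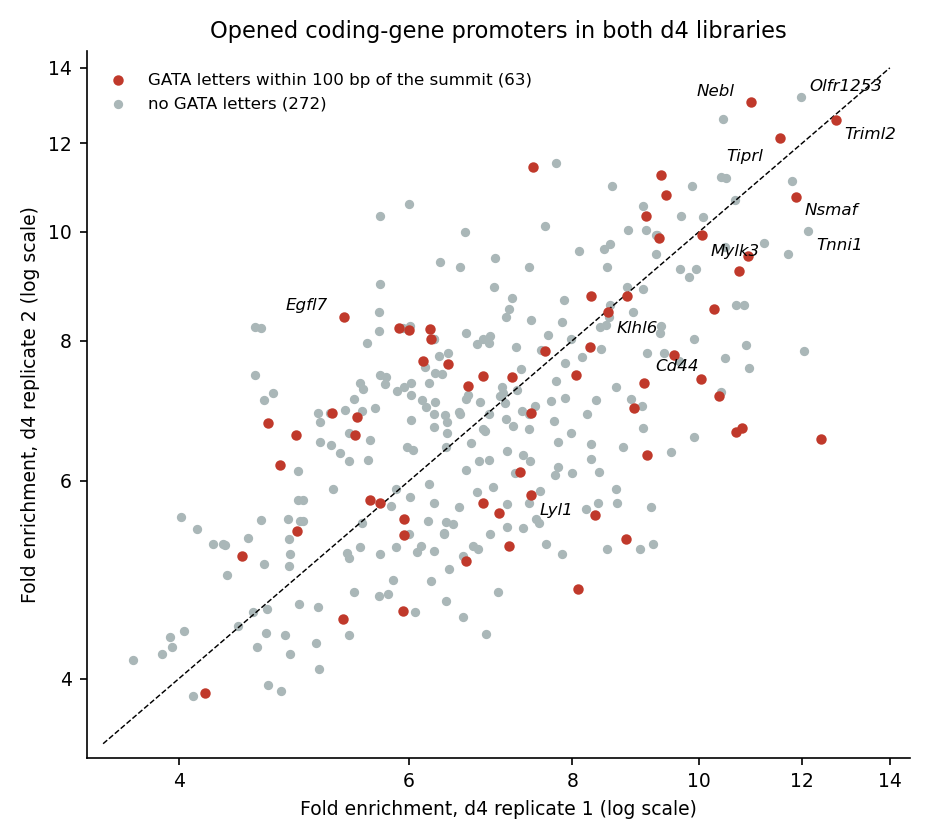
Fold enrichment of the 335 opened coding-gene promoters in d4 replicate 1 (x axis) and d4 replicate 2 (y axis), both on log scales, 1 point per region, with the dashed line marking equal values. The 63 regions with GATA letters near the summit (red) are spread over the whole range, from S100a10 at 4.19 and 3.88 to Triml2 at 12.7 and 12.6.

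The strongest opened promoter, by the lower of its d4 folds, belonged to Triml2, a gene of the tripartite motif family, on mm10 chromosome 8 (43179196 to 43179679, intergenic). Its fold was 12.7 in d4 replicate 1 and 12.6 in d4 replicate 2, on pileups of 31 and 28, and its nearer edge lay 862 bp upstream of the start. Nsmaf, which encodes a protein that couples the TNF receptor to neutral sphingomyelinase, had pileups of 39 and 34, with folds of 11.9 and 10.8 in an intron (chromosome 4, 6452498 to 6452976). Tiprl, which encodes a regulator of PP2A phosphatases, had folds of 11.5 and 12.1 in an intron (chromosome 1, 165217236 to 165217496). All of these hold GATA letters within 100 bp of the summit. Of the 15 regions of highest lower fold, only these and those of Nebl and Mylk3 do.

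Regions of 5 muscle protein genes are given together, a grouping made after their values were seen, and it gives no share of all muscle genes. In a textbook list of cardiac and cardiopharyngeal genes, 2 of 24 with a region had an opened promoter and 2 a day-2-only one. Over all coding genes with a region the shares were 2.45% and 10.8%. Tnni1, Nebl and Mylk3 were among the 15 regions of highest lower fold, and Tnnt2 and Tnnt3 lay near the median of all 335. Tnni1, which encodes the slow skeletal troponin I that embryonic heart also uses, had folds of 12.1 and 10.0 in d4 replicates 1 and 2 (chromosome 1, 135800468 to 135800982, intron). Tnnt2, the cardiac troponin T gene, had 7.99 and 6.10 in the region 39966 bp away on the same chromosome (135840949 to 135841283, intron). A region of Tnnt3, the fast skeletal troponin T gene, had 6.43 and 7.62 and lay 27816 bp from one of Lsp1 on chromosome 7. Nebl encodes the actin-binding Z-disc protein nebulette, and its region at a start of its own (chromosome 2, 17460508 to 17460932, 5′ UTR) had folds of 10.96 and 13.05. A promoter open in all libraries lay 269843 bp from it. Mylk3, the cardiac myosin light chain kinase gene, had 10.1 and 9.93 (chromosome 8, 85380902 to 85381221, intron), with GATA letters in both this region and that of Nebl.

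The other leading regions belonged to genes of mixed function. Cd226 encodes an activating receptor of lymphocytes and platelets and had folds of 11.8 and 11.1. Ipo11, the gene of a nuclear import receptor, had 10.7 in both d4 libraries, and Nrip1, the gene of a corepressor of nuclear receptors, had 10.4 and 11.2. Tmbim1, Sh3glb1, Dtd1 and Lrch1 had lower folds of 10.1, 9.78, 9.89 and 10.5. Regions of the olfactory receptor genes Olfr1253 (11.96 and 13.19) and Olfr1052 (10.4 and 12.6) were narrow, at 172 and 142 bp, and held none of the GATA, ETS or AP-1 letters. Repeats masked in the assembly made up 80.6% and 48.3% of the 201 bp around their summits.

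Several genes had more than 1 opened promoter region, namely Dlc1, Kif26b, Clasp1, Ephb3, Clic1 and S100a10. Dlc1 encodes a GTPase-activating protein, and its regions had folds of 7.56 and 7.85 (chromosome 8, 36732123 to 36732283) and of 6.28 and 7.06 (36952344 to 36952636) in d4 replicates 1 and 2. Kif26b, a kinesin family gene, had 6.62 and 9.99 at one start and 5.38 and 5.17 at another. S100a10, which encodes the partner of annexin A2, had 7.98 and 6.62 in an intron and 4.19 and 3.88 upstream of its start. Both S100a10 regions flanked an always-open promoter, at 220 and 209 bp from it. Clasp1, which encodes a microtubule-binding protein, had folds of 9.04 and 7.003 and of 5.98 and 6.43, the ephrin receptor gene Ephb3 of 7.50 and 7.003 and of 6.92 and 5.38, and the chloride channel gene Clic1 of 6.49 and 5.49 and of 3.95 and 4.27.

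Opened promoters lay farther from the annotated start than other promoters did. Their region overlapped a coding start in 150 of 335 cases (44.8%), against 62.8% of day-2-only and 92.3% of always-open promoters. The differences were -18.1 points (95% Newcombe interval -23.8 to -12.2) and -47.5 points (-52.7 to -42.1). Median region widths were 287, 345 and 639 bp in these classes, and a wider region reaches a start more easily. The median distance of the summit from the start was 200 bp in opened, 117 bp in day-2-only and 60 bp in always-open promoters. Summits lay in introns in 48.4% of opened promoters, against 31.6% and 16.1% in the other classes, and in a 5′ UTR in 17.9%, against 28.5% and 34.8%. These regions are not replicates, so every such interval covers counting error only.

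**Figure D2:**
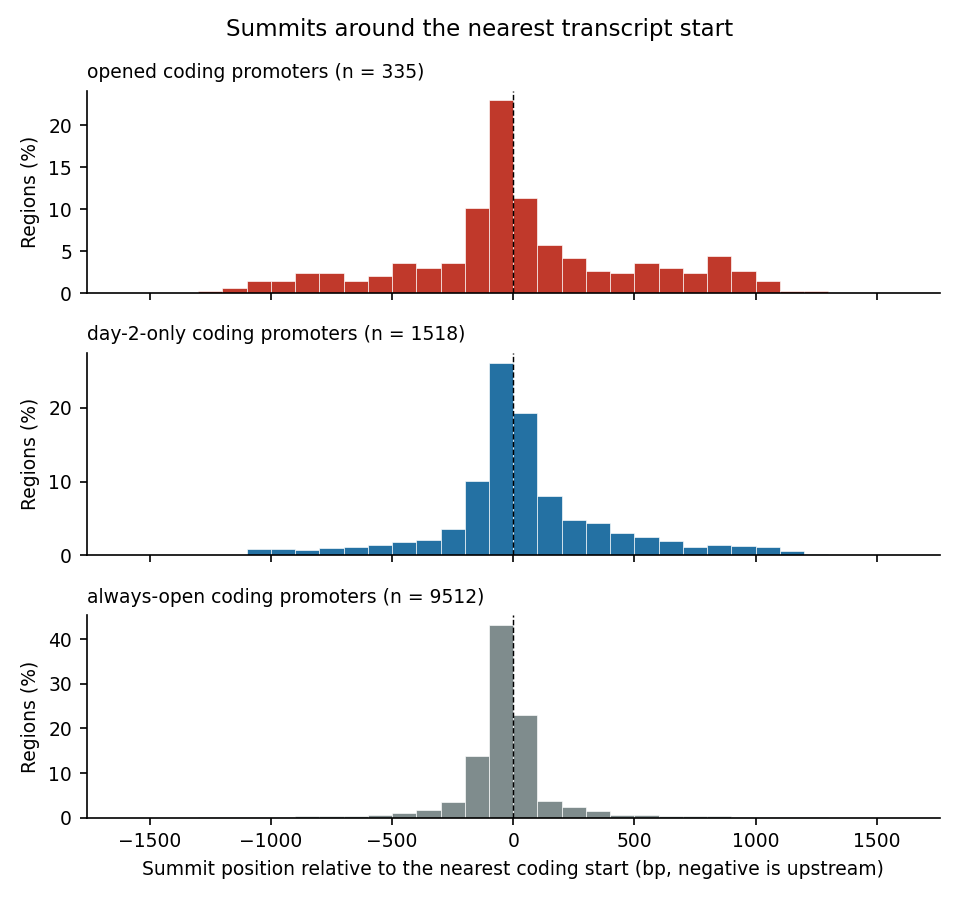
Position of the peak summit relative to the nearest start of a protein-coding gene (x axis, bp, negative values upstream, bins of 100 bp) as a share of the regions (y axis, %; its scale differs between panels) for opened, day-2-only and always-open coding-gene promoters. Summits within 200 bp of the start make up 50.1% of opened, 63.7% of day-2-only and 83.8% of always-open promoters.

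The starts themselves differed as well. A start of a principal isoform, the transcript that the annotation ranks as the main protein form, lay within 1000 bp of 198 opened promoters (59.1%), against 75.3% of day-2-only promoters (difference -16.2 points, 95% interval -21.9 to -10.6) and 93.4% of always-open promoters (difference -34.3 points, -39.6 to -29.1). The nearest start was that of a transcript not annotated as protein-coding, such as a retained intron, in 126 of the 335. With starts of coding transcripts only, 265 regions remained near a start. The gene of an opened promoter had another promoter open in all 4 libraries in 150 cases (44.8%), against 26.7% for day-2-only promoters (difference 18.03 points, 12.3 to 23.8) and 12.2% for always-open promoters (32.5 points, 27.3 to 37.9). For an always-open promoter this required a further always-open region besides itself, so the last difference is in part built into the count. Of all coding genes with a promoter region, 72.8% had a promoter open in all libraries.

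These 150 regions were of different kinds. The gap to the always-open promoter was at most 1000 bp in 44 of them, as at Pdlim5 (140 bp) and Hapln1 (531 bp), so that the opened region flanked a promoter that was open at d2. The median gap was 9634.5 bp and the largest 708166 bp. Distant ones included Nebl, Nrip1 (48888 bp), Rbpms (75822 bp) and Ipo11 (99738 bp). The other 185 opened promoters belonged to genes with no promoter open in all libraries, among them Cd93, Lyl1, Tnnt2, Acta2 and Emilin1. GATA letters occurred in 34 of the 150 (22.7%) and in 29 of the 185 (15.7%).

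Opened promoters had a lower GC content than other promoters. Over the 201 bp around the summit the median was 55.2% (quartiles 50.7% and 60.7%), against 65.7% in day-2-only and 66.2% in always-open promoters and 50.7% in opened distal regions, which lay over 1000 bp from any annotated start. GC was below 50% in 71 opened promoters (21.2%), against 3.36% of day-2-only promoters (difference 17.8 points, 95% interval 13.7 to 22.6), 1.69% of always-open promoters (19.5 points, 15.5 to 24.2) and 44.6% of opened distal regions (-23.4 points, -27.8 to -18.5). The observed over expected CpG ratio, which is high in CpG islands, was below 0.6 in 260 opened promoters (77.6%), against 43.9%, 16.5% and 98.4%. Repeats masked in the assembly made up at least 50% of the bases in 2 of the 335 opened promoters.

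**Figure D3:**
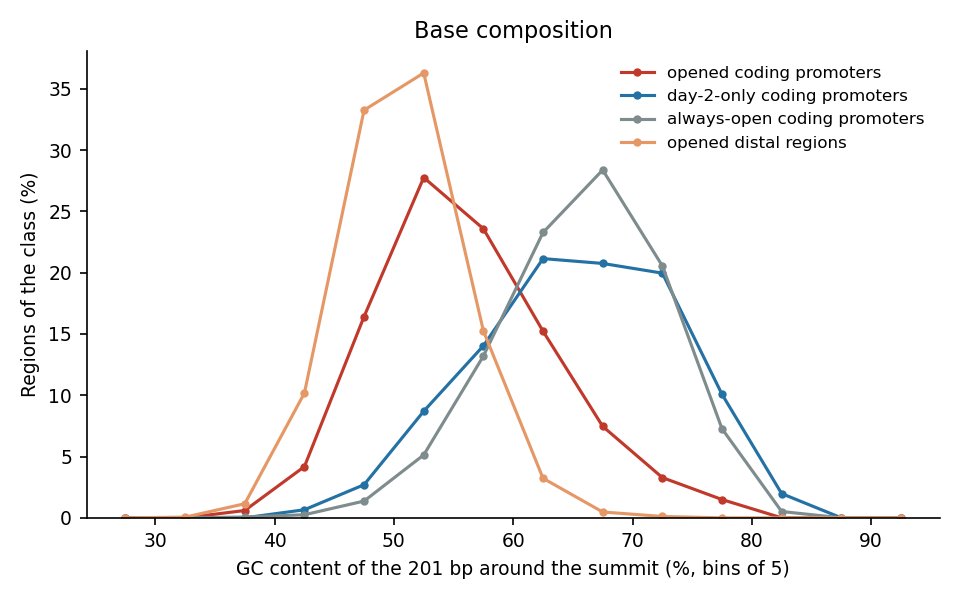
GC content of the 201 bp around the summit (x axis, %, bins of 5) as a share of the regions of each class (y axis, %). Opened coding-gene promoters (median 55.2%) lie between opened distal regions (50.7%) and the day-2-only and always-open promoters (65.7% and 66.2%).

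GATA letters, AGATAAG or TGATAAG on either strand, were found within 100 bp of the summit in 63 of 335 opened promoters (18.8%, 95% Wilson interval 15.0 to 23.3). They were found in 17 of 1518 day-2-only promoters (1.12%), in 96 of 9512 always-open promoters (1.01%) and in 1.75% of all 16595 promoter regions. The differences were 17.7 points (95% interval 13.8 to 22.2) and 17.8 points (13.97 to 22.3). Widened for the 66 comparisons of 22 motifs, the intervals were 11.4 to 25.9 and 11.7 to 26.0. Opened distal regions held the letters more often still, at 31.6%, a difference of -12.8 points (-16.9 to -8.03). GATA letters were searched because the whole set of opened regions was known to hold them, so the promoters are not independent evidence for them. The difference from day-2-only promoters was smaller, with the widened interval above 0, when peaks had to overlap by 50% (8.25 points), with the top 15000 peaks (8.04), at −log10 q of at least 10 (9.66), with d2 replicate 2 left out (9.81), with d4 replicate 2 left out (11.6) and within 50 bp of the summit (10.7).

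Since the letters are rich in A and T, the shares were also compared among regions of low CpG ratio and among those of low GC content. Each cut sets 1 limit and matches nothing, so the classes can still differ in A and T content within it. Among regions with a CpG ratio below 0.6, GATA letters occurred in 60 of 260 opened promoters (23.1%), against 11 of 666 day-2-only promoters (1.65%) and 32 of 1573 always-open promoters (2.03%). The differences of 21.4 points (widened interval 13.4 to 31.3) and 21.04 points (13.3 to 30.9) were as large as over all regions. Below 50% GC the shares were 28.2% of 71, 5.88% of 51 and 3.73% of 161, and the widened interval of the difference from day-2-only promoters, -2.83 to 42.8, includes 0.

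Of the 63 opened promoters with GATA letters, 60 had a CpG ratio below 0.6, as did 260 of all 335. The letters occurred in 20 of 71 opened promoters with GC below 50% (28.2%) and in 43 of 264 with GC of 50% or more (16.3%). They occurred in 31 of 168 with a summit within 200 bp of the start (18.5%) and in 32 of 167 farther out (19.2%), and in 28 of 198 with a principal start (14.1%) and 35 of 137 without one (25.5%). With the regions ordered by lower fold and cut into 4 equal groups, 12 of 84, 16 of 84, 13 of 83 and 22 of 84 held them, from the lowest group to the highest. The median distance of the nearest GATA letters from the summit was 40 bp, and 38 of the 63 were within 50 bp. Besides the regions shown, they were found at Klhl6 (8.52 and 8.48, summit in a 5′ UTR), at Egfl7 and at Lyl1. The Lyl1 region also held the composite CTG followed after 7 to 9 bases by GATAA, which TAL1 and GATA1 occupy jointly in blood cells. The composite was present in 25 opened promoters (7.46%), against 0.66% of day-2-only and 0.58% of always-open promoters (differences 6.80 points, widened interval 3.06 to 13.2, and 6.88 points, 3.31 to 13.2), and its matches can overlap GATA letters.

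Over all regions, the ETS letters split by CpG. CAGGAAG, without CpG, occurred in 59 opened promoters (17.6%), against 8.04% of day-2-only promoters (difference 9.58 points, widened interval 3.09 to 17.9) and 7.70% of always-open promoters (9.92 points, 3.92 to 17.999). CCGGAAG, with CpG, occurred in 17 (5.07%), against 4.28% of day-2-only promoters (0.79 points, widened interval -2.69 to 6.68) and 15.5% of always-open promoters (-10.4 points, -13.5 to -4.59). Among regions with a CpG ratio below 0.6, its difference from always-open promoters was -4.11 points, and the widened interval of -7.37 to 2.19 includes 0. Below 50% GC its shares were 4.23% and 8.07%, with a widened interval of -14.7 to 12.9. Only 11 opened promoters held both GATA and ETS letters. AP-1 letters occurred in 29 (8.66%), against 3.56% and 2.18%, and TEAD letters (ACATTCC or GCATTCC) in 35 (10.4%), against 3.69% and 2.96%, with widened intervals above 0 for each of these differences. At a CpG ratio below 0.6, the AP-1 difference from day-2-only promoters was 5.66 points, against 5.10 over all regions, and its widened interval of -0.48 to 14.1 includes 0. The TEAD difference was 6.45 points, against 6.76 over all regions, with a widened interval of -0.13 to 15.3. In the same stratum the widened intervals against always-open promoters stayed above 0, at 2.14 to 15.7 for AP-1 and 1.66 to 16.0 for TEAD, as did that of the ETS letters without CpG against day-2-only promoters (9.19 points, 0.73 to 19.3). Below 50% GC, AP-1 letters occurred in 11.3% of opened promoters, against 15.7% of day-2-only and 6.83% of always-open promoters. TEAD letters occurred in 11.3%, against 11.8% and 7.45%, and ETS letters without CpG in 21.1%, against 13.7% and 6.83%. All widened intervals of these differences include 0.

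Of the letters typical of housekeeping promoters, those of SP were scarcer than in both other classes. The SP letters GGGGCGGGG occurred in 9 opened promoters (2.69%), against 12.4% of day-2-only and 18.4% of always-open promoters, and the NFY letters (CCAATCA or CCAATGA) in 4.78%, against 6.72% and 15.2%. The widened interval of the NFY difference from day-2-only promoters, -5.59 to 3.97, includes 0. The NRF1 letters GCGCATGCG were found in 0 of 335, which allows a share of up to 0.896% by counting error alone, against 0.395% of day-2-only and 2.74% of always-open promoters. Both widened intervals, -1.42 to 2.89 and -3.37 to 0.57 points, include 0, and the 95% interval of the difference from always-open promoters was -3.09 to -1.57 points. None of the GATA, ETS, AP-1, TEAD or forkhead letters was found in 160 of the 335 opened promoters (47.8%). A match is a description of the letters and shows no binding.

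**Figure D4:**
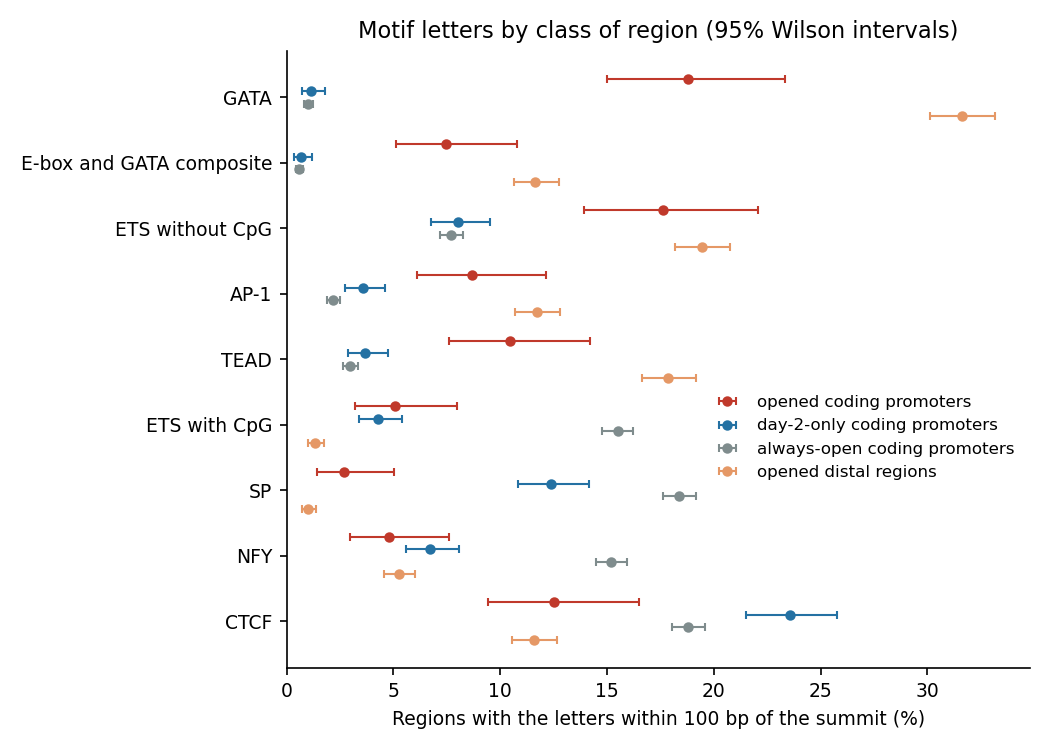
Share of regions (x axis, %) with each set of motif letters within 100 bp of the summit, for opened, day-2-only and always-open coding-gene promoters and for opened distal regions, with 95% Wilson intervals that cover counting error only. For GATA the shares are 18.8%, 1.12%, 1.01% and 31.6%.

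By gene, 340 coding genes had a start within 1000 bp of an opened promoter, 2.45% of the 13879 coding genes with any promoter region, and 1496 (10.8%) had a day-2-only promoter. These shares are the background for the lists that follow, whose members were drawn from textbook knowledge or from the study's markers of embryo ECs. Of 217 markers of the EC cluster of embryonic Tbx1Cre-sorted cells with a promoter region, 20 had an opened promoter (9.22%, 95% Wilson interval 6.05 to 13.8) and 31 a day-2-only promoter (14.3%). Without d4 replicate 1 or 2 the opened share was 15.2% or 17.3%, beside 5.2% or 5.55% of all coding genes. The larger EC lists from Mesp1Cre-sorted cells had opened promoters in 54 of 988 genes (5.47%, cluster 2) and 61 of 1154 (5.29%, cluster 16), and they overlap the Tbx1Cre list.

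The 20 Tbx1Cre markers were led by Ipo11, Sh3glb1, Rbpms (11.7 and 9.56 in d4 replicates 1 and 2), which encodes an RNA-binding splicing regulator, and Klhl6, a gene of the BTB-kelch family. The regions of Ipo11 (summit in a coding exon), Sh3glb1 and Rbpms (both in introns) had no principal start within 1000 bp. An always-open promoter of the same gene lay 99738, 11757 and 75822 bp away, in that order. Cd93 and Egfl7 were also in the textbook EC list, where they were the only 2 of 40 genes with an opened promoter, against 10 with a day-2-only promoter. Cd93 encodes a surface glycoprotein of ECs and blood progenitors and had folds of 5.44 and 7.10 at its start (chromosome 2, 148443315 to 148443733). Egfl7 encodes a factor secreted by ECs and had 5.35 and 8.41 in an intron 159 bp from a start (chromosome 2, 26588702 to 26588918). Of the defining EC genes, Cdh5, Pecam1 and Tek had a promoter peak in 1 d4 library and none at d2, which the selection does not take, Kdr had one in all 4 libraries, and Emcn had none.

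The blood, heart and early mesoderm lists had 1 or 2 genes each with an opened promoter, so that their shares rest on few genes. As many had a day-2-only promoter, at 2 haematopoietic, 2 cardiac and 1 early mesoderm gene. Of 18 haematopoietic genes with a region, 2 had an opened promoter (11.1%), namely Lyl1, which encodes a basic helix-loop-helix factor related to TAL1 and had 7.44 and 5.84 (chromosome 8, 84701465 to 84701836, 5′ UTR), and Cd44. Tal1 and Runx1 had a promoter peak in all libraries. Of 24 cardiac and cardiopharyngeal genes, the troponin genes Tnni1 and Tnnt2 were the 2 with an opened promoter (8.33%), and of 18 early mesoderm genes 1, the PDGF receptor gene Pdgfra (5.45 and 4.78). The mesoderm genes T and Eomes had a promoter region with peaks in both d2 libraries and 1 d4 library. Nkx2-5 and Mesp1 had a promoter peak in 1 d2 library and none at d4. No promoter region was found for Myl7, Gata1 and Spi1.

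The cytoskeletal, matrix, and annexin and S100 lists had 3 to 7 genes each with an opened promoter. Of 45 genes of the actin cytoskeleton and its regulators with a region, 7 had an opened promoter (15.6%) and 3 a day-2-only one (6.67%). They were Acta2, the smooth muscle actin gene (7.56 and 5.87, 5′ UTR), Dlc1, Pdlim5, which encodes a PDZ and LIM protein of the Z-disc (5.76 and 7.42), Actn4, Farp1, Myl6 and Tagln2. Of 35 mesenchymal and matrix genes, 4 had one (11.4%), with Col5a2 at 8.38 and 5.73, Hapln1 at 5.25 and 5.90, Lama4 at 5.23 and 6.46 and Emilin1 at 5.78 and 4.76. Col5a2 encodes a chain of collagen V, Lama4 a laminin chain of vessel basement membranes, and Emilin1 a glycoprotein of elastic fibres. Of 13 annexin and S100 genes, 3 had one (23.1%) and 0 a day-2-only one. All 3 were S100 genes, and S100a1 and S100a13 share 1 region (6.63 and 8.13). The olfactory receptor genes, a family looked at after its members were seen among the opened promoters, had the same share, 3 of 13.

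The remaining lists had at most 2 genes with an opened promoter. Of 29 naive pluripotency genes, 1 had an opened promoter (3.45%), Lin28a, which encodes a repressor of let-7 processing (4.92 and 6.59, 573 bp past a start), and 9 had a day-2-only one (31.0%), Lin28a, Pou5f1 and Zfp42 among them. Of 20 primed pluripotency genes 1 had one (5.00%), Sall2 (4.95 and 5.53). No opened promoter was found among 23 neural, 19 endoderm and 26 ubiquitous genes, against 5, 7 and 2 with a day-2-only promoter. Of 45 genes of BMP, TGF-beta, VEGF and Notch signalling, Tgfb1 alone had one (2.22%, folds 5.36 and 6.94). Of 33 GATA, ETS and AP-1 factor genes, Gata3 (6.08 and 5.19) and Junb (5.40 and 5.12) had one (6.06%). Gata3 also accounts for the 1 opened promoter of 9 trophoblast genes (11.1%). The opened regions of Gata3 and Junb lay 644 and 1915 bp from an always-open promoter.

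**Figure D5:**
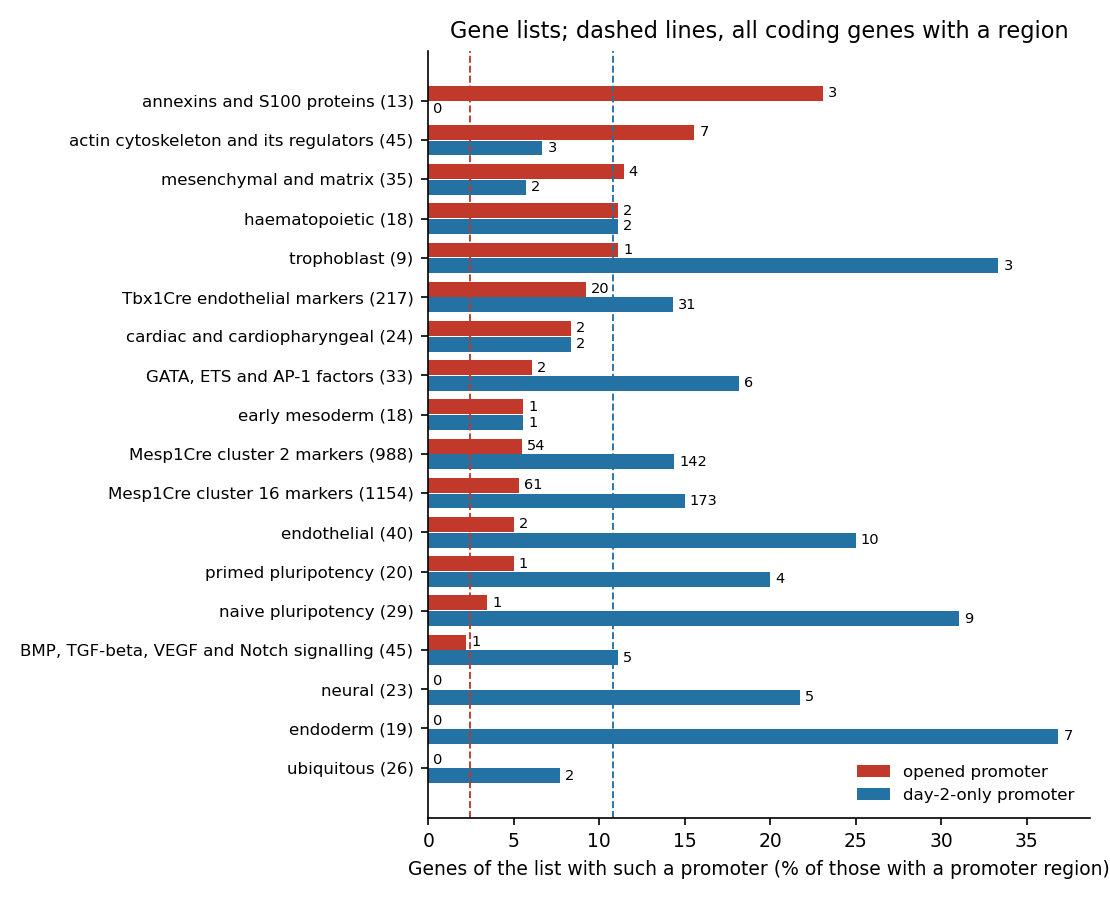
Share of the genes of each list (x axis, % of the genes with a promoter region, whose number stands in brackets) with an opened (red) and a day-2-only promoter (blue); the number at each bar counts genes, and dashed lines give 2.45% and 10.8% over all coding genes with a region. The list of annexin and S100 genes (23.1%) and that of the actin cytoskeleton and its regulators (15.6%) have the largest opened shares, from 3 and 7 genes. The 3 are all S100 genes, and S100a1 and S100a13 share 1 region.

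Opened distal regions lay within 50 kb of 60 of the 335 opened promoters (17.9%), against 13.1% of day-2-only and 13.5% of always-open promoters. Hapln1 had 3 of them, and Cd44, Nrip1, Pdlim5, S100a10 and Clic1 had 2 each. Within 50 kb of each other lay 20 opened promoters in 10 neighbouring pairs, of which 6 joined different genes, such as Tnni1 with Tnnt2 and Agbl5 with Emilin1, 25174 bp apart.

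Regions at the edge of the selection were weak. The 3 opened promoters of lowest support, at Reep3, Pygb and Zfp456, had a lower −log10 q of 3.14, 3.21 and 3.28, just above the caller's threshold of 3. Just outside, Ptp4a2, Npepl1 and Zrsr1 had peaks in both d4 libraries and 1 d2 peak of −log10 q 3.11, 3.26 and 3.57, and 439 promoter regions in all had both d4 peaks and 1 d2 peak. A further 745 had 1 d4 peak and none at d2. By distance, Relt, Snx8 and Mfap3l were the farthest inside, at 992, 991 and 980 bp from a start, and regions near Atg9b and Rbfa were the nearest outside, at 1013 and 1020 bp. The count rested on every library, as 1 peak sufficed at a time point once a library was left out: it was 707 and 760 when d4 replicates 1 and 2 were left out in turn, and 534 and 623 for d2 replicates 1 and 2.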

How the data were processed

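ATAC-seq peak lists of 2 d4 and 2 d2 libraries were analysed, grouped by their labels. Per the study's methods, the authors used cutadapt for trimming and Bowtie2 for alignment to mm10, dropped reads that were mitochondrial, duplicated or mapped to several places, called peaks per library with MACS2, and removed blacklisted regions. Both paired-end mode and a shift and extension of reads are named, and which applied was not tested. In the deposited files the fold enrichment is the ratio of pileup to local background at the summit, and the −log10 p and −log10 q are those of the authors' caller (q of at most 0.001). The deposited score, 10 times the −log10 q, was not used. Read totals are not part of these lists. Relative depth was solved from fold and p (to within 1.48e-05 in −log10 p).

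Peaks overlapping by 1 bp were merged, and regions were annotated with GENCODE release M21 and the GRCm38 genome, whose chromosome lengths hold all peaks. Summit places are the first of 5′ UTR, 3′ UTR, coding exon, noncoding exon, intron and intergenic that any transcript gives. Motif letters were searched on both strands in 201 bp around the summit of the strongest peak. Shares carry 95% Wilson intervals and their differences Newcombe intervals, also widened to 99.9% for 66 comparisons, and cover counting error only. No p-value is given between time points, since the smallest that an exact permutation test of 2 against 2 libraries allows is 0.333. The steps were tested on simulated data. Python 3.11.15, pandas 2.3.3, scipy 1.17.1, pysam 0.24.0 and samtools 1.23.1 were used.

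The regions, the 15 textbook lists, the motifs and the naming rule were chosen with earlier results of these data known. Named are the 15 regions of highest lower fold, up to 4 per textbook list and of the Tbx1Cre list, genes with several regions, and regions at the edges of the selection. Outside this rule, further genes are named as markers, as list or group members (such as Actn4, Farp1, Myl6, Tagln2 and Tnnt3) or as neighbours (such as Lsp1 and Agbl5). Model names (Gm, Rik) are not discussed, and 13 of the 329 nearest genes have such names. Sequences were taken from named regions off chromosome 18 with GATA, ETS or AP-1 letters within 50 bp of the summit.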

Additional observations from a re-analysis of the deposited data

How the results depend on the processing

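No paired analysis was possible because the sources used here do not say whether a d4 and a d2 library of the same number shared an experiment. The selection itself would be the same set under either pairing, since it asks for a peak in each d4 library and none in each d2 library. The GATA differences from day-2-only and always-open promoters kept their sign and a widened interval above 0 in all 14 alternatives each, at 8.04 to 22.8 and 8.26 to 20.7 points. The number of opened promoters was 698 with a 50% reciprocal overlap, where neighbouring peaks count as separate regions, and 253 to 487 in the other 7 settings that leave out no library. It was 534 to 760 with 1 library left out, where 1 peak suffices at that time point. The median GC content was 61.2% with the 50% overlap, 58.7% at −log10 q of at least 10, 59.2% with the top 15000 peaks and 56.4% within 50 bp of the summit, and 56.2% to 59.2% with 1 library left out. The cause of these shifts was not tested. The share of Tbx1Cre markers with an opened promoter was 11.7% to 17.3% with 1 library left out, beside 4.05% to 5.55% of all coding genes. Weak peaks on few fragments and the shallower d2 libraries limit the selection.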
